A study of Homo sapiens with 9 samples.

Results

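The cytosolic ribosomal proteins are the protein subunits of the ribosome that translates mRNAs outside mitochondria. They were taken by name from the deposited table as protein-coding genes called RPL or RPS plus a digit, RPLP0 to RPLP2 or RPSA, without the RPS6 kinases. The rule found 91 of 58735 genes. Of these, 46 encode canonical proteins of the large (60S) subunit and 31 encode canonical proteins of the small (40S) subunit. A further 10 are paralogs of them, 3 are readthrough genes that join a ribosomal protein gene to its neighbour, and RPS19BP1 encodes a protein that binds RPS19 and is not itself part of the ribosome. The 77 canonical genes were all measured well enough to be tested, as were 7 paralogs and RPS19BP1, which makes 85 tested genes. Of the 6 that were not tested, RPL10L had no count in any library, the readthrough genes had between 0 and 3 counts in a library, and 2 lie on the Y chromosome and are not described here.

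All libraries came from OVCAR3, an established ovarian cancer cell line, cultured for 72 h. In each of 3 groups 3 samples were sequenced. The control group carried a scramble hairpin and has the genotype WT in the labels, and the others carried hairpin 76 or hairpin 78 against GPX3 (sh76 and sh78 here), labelled as GPX3 knock-down. GPX3 encodes a secreted glutathione peroxidase, and the study asked what it does in ovarian cancer cells. The labels do not say whether the replicates were separate transductions or cultures, so the p-values measure the spread between these samples, which may be technical.

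Every library held between 14652965 and 21327562 counts. GPX3 was at 173, 109 and 117 CPM (counts scaled for library size) with scramble, at 56.8, 55.2 and 55.5 CPM with sh76 and at 35.3, 28.4 and 28.3 CPM with sh78, so the libraries followed their labels. The 7 ovarian carcinoma line markers summed to 11400 to 12300 CPM in the scramble libraries, to 10300 to 11200 CPM under sh76 and to 9410 to 10000 CPM under sh78, and their part in the results was not tested. Markers of other cell types were far lower, with at most 52.6 CPM over 5 fibroblast markers, 10.8 CPM over 3 endothelial markers and 3.05 CPM over 4 immune markers. In the fibroblast list COL1A1 (25.5 to 44.5 CPM) and COL1A2 (1.09 to 6.88 CPM) were detected in every library, while DCN, LUM and PDGFRB were at 0 in at least 1 library and below 1 CPM in all.

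A ribosome is assembled in the nucleolus from ribosomal RNA and these proteins, most of them in a single copy per ribosome. In animals the mRNAs of nearly all ribosomal proteins begin with a terminal oligopyrimidine (TOP) tract, a C at the first base followed by a run of C and T (or U), which lets mTORC1 and LARP1 control their translation together. That control acts on ribosome loading and need not change the mRNA level measured here.

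RefSeq start sites on GRCh38.p14 were found for 70 of the 89 genes looked up. Counted over genes, a C at the listed start followed by at least 4 pyrimidines was present at 46 of 62 canonical genes (74.2%), against 5.14% of all 27305 genes in the same promoter table. It was present at 1 of 6 paralogs with a listed start (16.7%), and at 9 of 10 other TOP mRNAs such as elongation factors. Allowing the run to begin within 5 bases of the start raised the shares to 85.5% of canonical genes and 25.2% of all genes. The match is on the strand of the gene only, and an annotated start is not a start measured in these cells.

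The following windows show 10 bases before and 20 bases from each listed start, 5′ to 3′ on the strand of the gene. Capitals mark a run only where it begins at the listed start. The first 3 are abundant canonical genes with a run, and the others are RPL9 and RPL7L1, on which the results turn, and RPS27 with its paralog.
RPS16 (chr19:39435930-39435959, minus strand): ccctagctttCCTTTTCCggttgcggcgcc
RPS3 (chr11:75399508-75399537, plus strand): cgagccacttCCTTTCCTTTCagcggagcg
RPLP0 (chr12:120201092-120201121, minus strand): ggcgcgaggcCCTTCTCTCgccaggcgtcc
RPL9 (chr4:39458903-39458932, minus strand): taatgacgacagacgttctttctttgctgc
RPL7L1 (chr6:42879606-42879635, plus strand): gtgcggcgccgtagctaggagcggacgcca
RPS27 (chr1:153990752-153990781, plus strand): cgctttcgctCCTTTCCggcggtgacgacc
RPS27L (chr15:63157458-63157487, minus strand): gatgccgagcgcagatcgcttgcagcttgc
RPS16, RPS3, RPLP0 and RPS27 begin with a run of 7 to 11 pyrimidines at the listed start. RPL9, RPL7L1 and RPS27L have none at that base. The RPL9 window does hold a run of C and T a few bases further on, and whether its transcripts begin there was not tested. The windows were picked for display and do not show whether a run goes with a change. RPL18, not shown, has a run of 8 at its listed start and was lower with sh76 (log2 fold change −0.17, adjusted edgeR p 0.141, and 0.00151 with the block). Medians for all genes with and without a run are given below.

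The ribosomal protein mRNAs together took a similar share of the counts in every group. Scramble replicates 1 to 3 had 7.04, 6.91 and 7.46%. The sh76 libraries had 7.03, 6.98 and 7.26%, and the sh78 libraries 7.40, 7.40 and 7.33%. The means were 7.14 ± 0.287% (SD, n = 3) with scramble, 7.09 ± 0.149% with sh76 and 7.38 ± 0.0404% with sh78. The 3 sh78 libraries lay above all 3 sh76 libraries, and scramble replicate 3 was the highest library of all. The log2 ratio of summed 60S to summed 40S counts stayed between −0.045 and 0.010 in the 9 libraries. It was −0.045 to −0.035 in the scramble libraries, −0.027 to −0.022 with sh76 and −0.030 to 0.010 with sh78, so all 6 hairpin libraries lay slightly above all 3 scramble libraries. Such a ratio of sums is weighted to abundant genes, such as the 40S genes RPS16, RPS2 and RPS3 (scramble means 6395, 6275 and 5302 CPM). By gene, the median log2 fold changes of 60S and 40S genes were −0.015 and −0.014 with sh76, and 0.056 and 0.011 with sh78. In cells grown in bulk, fewer cells and less RNA per cell cannot be told apart, and a share says nothing about the total amount of ribosomal protein mRNA.

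**Figure D1:**
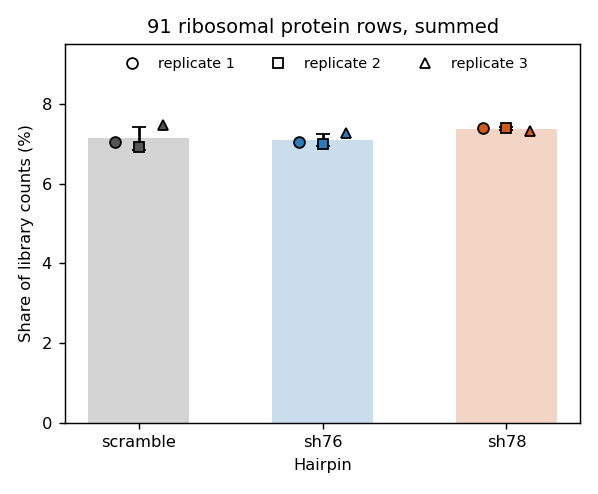
Share of each library's counts (in %) taken by the 91 ribosomal protein genes, for scramble, sh76 and sh78. Bars are means, error bars the SD over 3 replicates and points the libraries; the points lie between 6.91 and 7.46%.

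Within a library the canonical mRNAs spanned a wide range. On the deposited FPKM scale (fragments per length of gene and depth of library), the scramble mean was 2587 ± 191 (SD, n = 3) for RPS2 and 2444 ± 156 for RPS16, a pair of 40S proteins. Behind them came RPL8 at 910 ± 57.0, RPS3 at 895 ± 62.5 and RPL41, which encodes the smallest ribosomal protein, at 832 ± 48.9. RPL8, RPS3 and RPL41 lay within 1 or 2 SD of their neighbours in that order. The median canonical gene had 183 FPKM, and 55 of the 77 had at least 100.

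The deposited gene length is the union of all annotated exons (in 91 of 91 genes), which was between 1.06 and 33.3 times the length of the principal transcript, with a median of 3.11. Scaled by the principal transcript instead, the scramble level ran from 2.26 to 11400 CPM per kb, and RPS16 was highest, ahead of RPS2 and RPS3. This scale depends on the annotated transcript taken, which is long in some genes. It has 7686 bases for RPL37 and 7072 for RPL14, against a median of 829. These 2 genes stood at 93.8 and 50.8 CPM per kb, with scramble means of 721 and 359 CPM, so their low place is partly one of length. RPS10, RPL17 and RPL36A were lowest on both scales.

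In each of these 3 genes, at least 70% of the exonic bases of the principal transcript are shared with the exons of a readthrough gene, with 77.02% for RPS10, 74.3% for RPL17 and 77.6% for RPL36A. The readthrough genes themselves held 0 to 3 counts. The levels of the 3 genes were 2.26, 8.73 and 12.3 CPM per kb of principal transcript, against 40.9 to 11400 in the 73 canonical genes that share less than 70%. The limit of 70% was set after these values were seen. How the counting treated fragments that fit more than one gene is not given in the sources used here, and its part in these low values was not tested. RPS10, for example, had 18 to 41 counts in a library, so little can be said of its response to either hairpin.

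**Figure D2:**
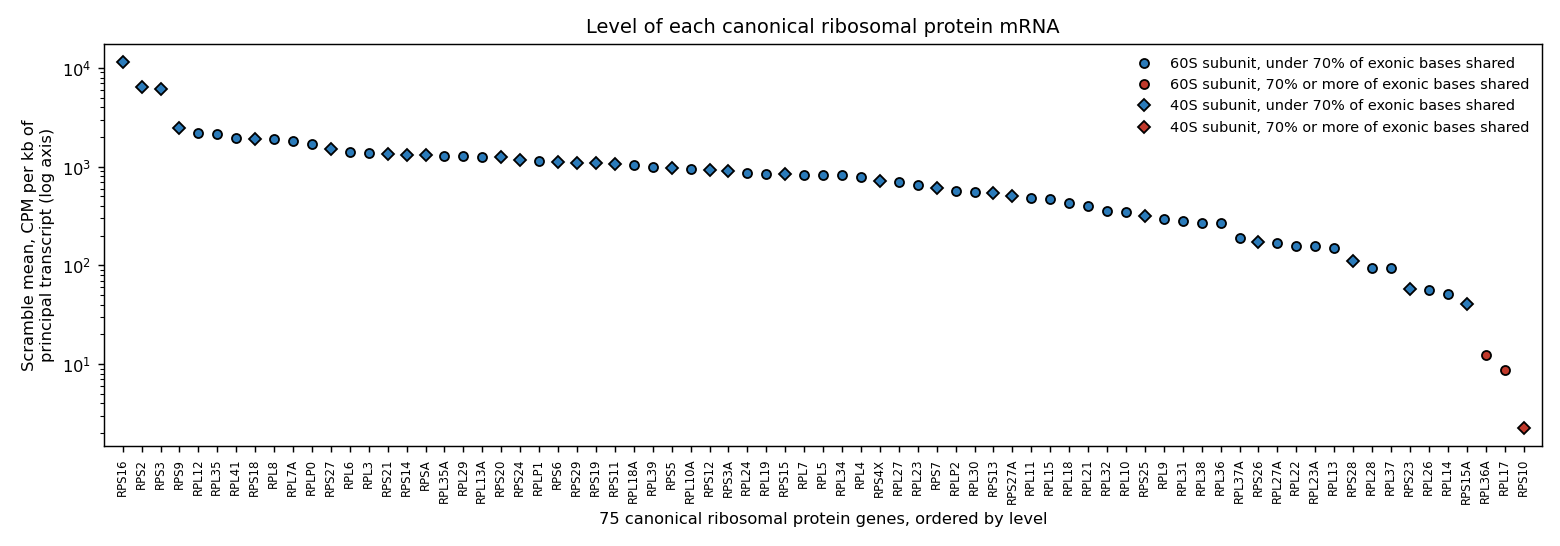
Scramble mean level of 75 canonical ribosomal protein genes in CPM per kb of principal transcript, on a log axis, ordered from high to low. The order depends on which annotated transcript was taken as principal. Circles are 60S and diamonds 40S genes; the 3 red points, which share at least 70% of their exonic bases with another gene, are the lowest, at 2.26 to 12.3 CPM per kb.

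With sh76, 0 of 85 tested genes passed edgeR's quasi-likelihood test at a Benjamini-Hochberg adjusted p under 0.05, against 3.58% of all genes tested (610 of 17023), and 8 had an unadjusted p under 0.05 (9.41%, against 17.4% of all genes). DESeq2 called 1 gene, RPL9, lower. The log2 fold changes lay between −0.24 and 0.17, with a median of −0.014, where the median over all tested genes was 0.006. The values were below 0 for 48 genes and above 0 for 37.

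With sh78, 0 of 85 passed as well, against 4.41% of all genes, and 9 had an unadjusted p under 0.05 (10.6%, against 17.5%). DESeq2 called 0. The log2 fold changes lay between −0.31 and 0.50 with a median of 0.034, and 58 were above 0. The median was 0.056 for the 46 genes of the 60S subunit and 0.011 for the 31 genes of the 40S subunit. Both ends of the range were genes of low count, RPL3L (7 to 25 counts in a library) and RPL36A.

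The intervals around these values were narrow. The median standard error of a log2 fold change was 0.062 for either hairpin, against 0.138 and 0.139 over all tested genes. The 95% interval lay wholly inside ±0.32 (a change of 1.25-fold in either direction) for 73 of 85 genes with sh76 and 76 with sh78, where 29.2% and 28.3% of all tested genes met that limit. A log2 fold change of at least 0.25 in size was seen for 0 genes with sh76 and for 4 with sh78 (4.71%), against 30.8% and 30.3% of all tested genes. The ±0.32 limit and the 0.25 limit were chosen with the values known, and these genes have high counts, with over 1000 in every library for 72 of the 77 canonical ones.

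**Figure D3:**
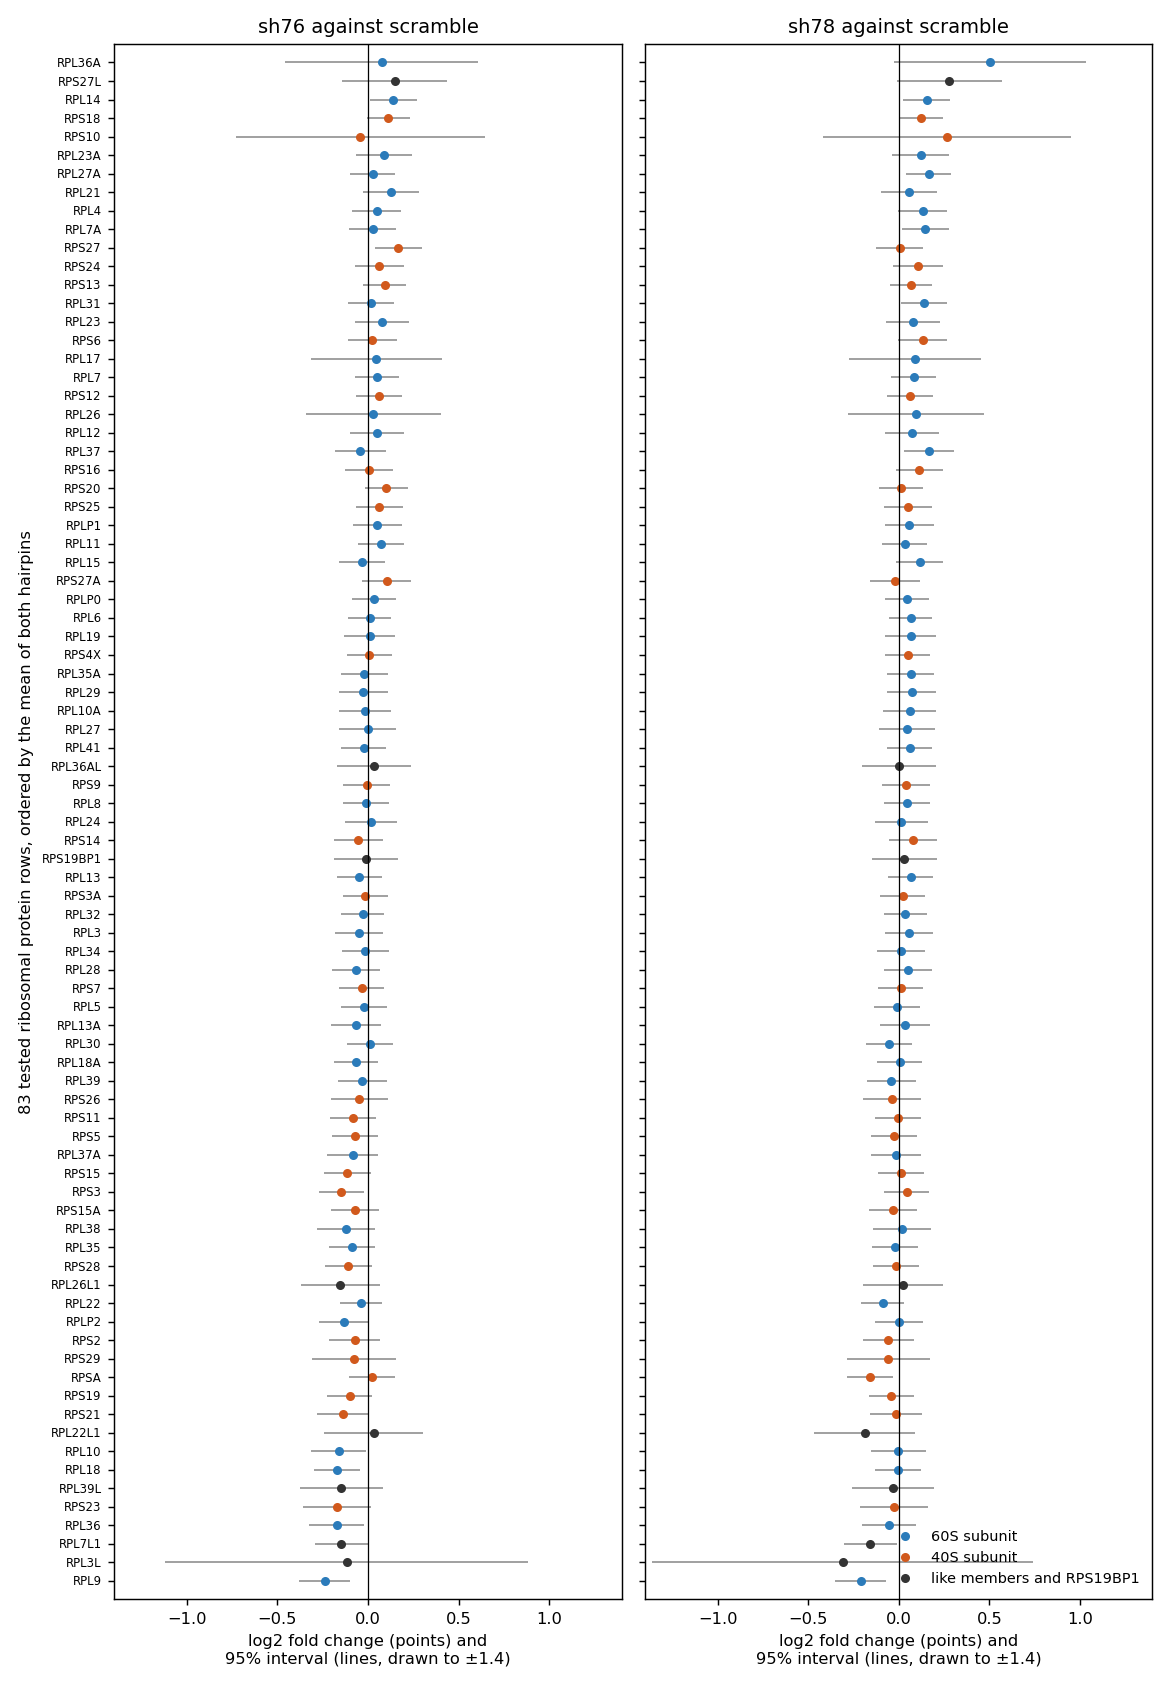
Log2 fold changes of 83 tested genes with sh76 (left) and sh78 (right) against scramble, as points with 95% intervals (lines), ordered by the mean of both hairpins. Most intervals cross 0; RPL9 is lowest in the order at −0.24 and −0.21, and the wide lines belong to genes of low count such as RPL36A, RPS10 and RPL3L.

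Over all genes, same-numbered samples of the 3 groups deviated together, and blocking on that number gave more calls, for all genes and for these genes alike. With sh76 there were then 14 calls of 85 (16.5%, against a background of 20.4%). The 4 higher ones were RPS18, RPS27, RPL14 and RPL21 (9.63% of all genes were called higher), and the 10 lower ones included RPS3, RPL10, RPL18, RPS15 and RPLP2 (10.7% of all genes were called lower). With sh78 there were 17 calls, against 19.9% of all genes. Of these, 14 were higher (9.79% of all genes), among them RPS16, RPL4, RPL7A, RPS6 and RPL15, and 3 were lower (10.1% of all genes), RPSA, RPL9 and RPL7L1. In the mean of both hairpins there were 8 calls (9.41%, against 20.3%), with 5 higher (9.38% of all genes) and 3 lower (11.0%). The sizes were small, between 0.113 and 0.237 on the log2 scale for sh76 and between 0.115 and 0.515 for sh78.

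The scramble and hairpin libraries did not overlap for 11 genes with sh76 (12.9%, against 22.5% of all tested genes) and for 13 with sh78 (15.3%, against 21.5%). The blocked calls in both single-hairpin comparisons were 4 genes, RPS18 and RPL14 higher and RPL9 and RPL7L1 lower, in the same direction with both hairpins. The share of all genes called in both was not counted, and both comparisons use the same 3 scramble libraries. In the values themselves, the same 4 genes were the ones whose 6 hairpin libraries lay entirely above or below the 3 scramble libraries (4.71% of 85, against 8.39% of all tested genes; 3.57% lay above and 4.82% below). RPS18, a 40S protein of the head of the small subunit, was at 1180, 1134 and 1220 CPM with scramble, 1222, 1278 and 1322 CPM with sh76, and 1273, 1316 and 1265 CPM with sh78. The lowest hairpin library was barely above the highest scramble library. The log2 fold changes of 0.11 and 0.12 did not pass without the block (adjusted edgeR p 0.313 and 0.261; 0.0379 and 0.0205 with the block). RPL14, a 60S protein, was at 339, 365 and 374 CPM, then 378, 391 and 418 CPM, then 399, 409 and 391 CPM. It differed by log2 0.14 and 0.15 (adjusted edgeR p 0.245 and 0.198; 0.0139 and 0.00644 with the block).

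RPL9 (chromosome 4, 39452521 to 39458949, minus strand, GRCh38), a 60S protein, was the single gene that passed the test without a block, in the mean of both hairpins against scramble, where 4.04% of all genes were called and 2.55% were called lower. It was at 210, 219 and 240 CPM with scramble, 185, 188 and 195 CPM with sh76, and 183, 205 and 190 CPM with sh78. The highest hairpin library lay just below the lowest scramble library. The log2 fold change was −0.22 (SE 0.057, adjusted edgeR p 0.0406, and 2.23e-05 with the block). With sh76 alone it was −0.24 (adjusted edgeR p 0.063) and with sh78 alone −0.21 (adjusted edgeR p 0.0984), with blocked values of 9.29e-05 and 0.00049.

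The RPL9 call in the mean comparison was lost in 9 of 20 other settings. These were both limma fits on log2 FPKM (adjusted p 0.0665 and 0.0677) and 7 of the 9 fits without 1 library (without scramble replicate 2 or 3, any sh76 replicate, or sh78 replicate 1 or 3; adjusted edgeR p 0.0566 to 0.194). Without scramble replicate 3 the log2 fold change was −0.17. It passed in the remaining settings, with log2 fold changes between −0.20 and −0.27.

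Named pseudogenes, which are retained copies in the genome, are listed for 76 ribosomal protein genes, RPL9 among them. Those of RPL9 took 62.9% of the counts of its family. One of them, RPL9P9, a transcribed processed pseudogene, had more counts than RPL9 itself. It was at 360, 351 and 386 CPM with scramble, 312, 317 and 317 CPM with sh76, and 325, 317 and 342 CPM with sh78. Its log2 fold change over both hairpins was −0.18 (adjusted edgeR p 0.0529, and 0.000123 with the block), so it was lower by a similar size. RPL9 with its 17 named pseudogenes summed to 575, 575 and 632 CPM, then 502, 508 and 516 CPM, then 513, 527 and 538 CPM, and its log2 difference was −0.20 (adjusted edgeR p 0.035). Short reads of near-identical copies can be split between them, so RPL9 and RPL9P9 cannot be told apart with certainty in these counts.

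**Figure D4:**
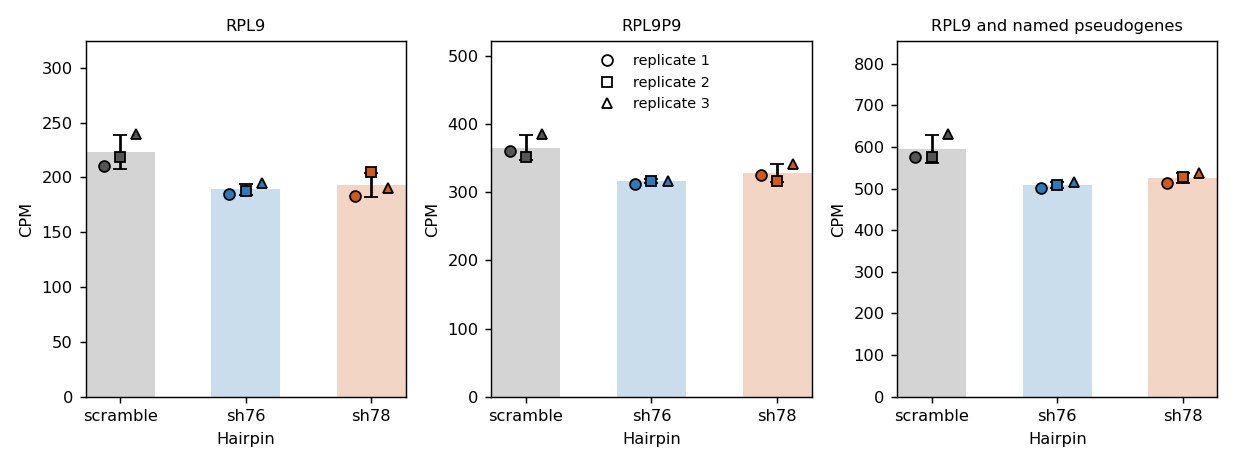
CPM of RPL9, of the pseudogene RPL9P9 and of RPL9 with its named pseudogenes, in scramble, sh76 and sh78. Bars are means, error bars the SD over 3 replicates and points the libraries; in each panel all hairpin libraries lie below all scramble libraries.

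Over the whole family, 1132 named ribosomal protein pseudogenes were in the table, 581 of them with counts and 84 tested. Their summed share was 0.342% in the lowest library and 0.382% in the highest. Pseudogenes held 78.7% of the family counts for RPS10, 38.1% for RPS28, 23.2% for RPS2 and 17.6% for RPL7. Of the 84 tested, 1 was called in the sh78 comparison, lower, and 0 in the sh76 comparison. Over all genes 4.41% were called with sh78 and 3.58% with sh76. The called pseudogene, RPL22P1, had a log2 fold change of −0.38 (adjusted edgeR p 0.0476).

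The 5S ribonucleoprotein proteins RPL5 and RPL11 are of interest because, when ribosome assembly is disturbed, they bind MDM2 and stabilise p53. RPL5 was at 812, 830 and 907 CPM with scramble, 817, 821 and 876 CPM with sh76, and 828, 836 and 862 CPM with sh78. Its log2 fold changes were −0.02 and −0.01, with 95% intervals of −0.15 to 0.11 and −0.14 to 0.11. RPL11 was at 468, 480 and 521 CPM, then 520, 510 and 513 CPM, then 496, 522 and 483 CPM, with log2 fold changes of 0.07 and 0.03. The groups of both genes overlapped.

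The stalk proteins RPLP0, RPLP1 and RPLP2 recruit translation factors to the 60S subunit. RPLP0 was at 2160, 1992 and 2208 CPM with scramble, 2134, 2158 and 2216 CPM with sh76, and 2202, 2144 and 2212 CPM with sh78. RPLP1 was at 1464, 1272 and 1411 CPM, then 1454, 1389 and 1456 CPM, then 1500, 1429 and 1389 CPM. Their log2 fold changes lay between 0.03 and 0.06 and no stalk gene passed without a block. RPLP2 was at 456, 418 and 465 CPM with scramble, 424, 382 and 415 CPM with sh76, and 445, 433 and 462 CPM with sh78, and it was called lower with sh76 with the block (log2 fold change −0.13, adjusted edgeR p 0.29, and 0.0141 with the block).

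Genes mutated in Diamond-Blackfan anaemia, a disorder of red cell production, form a list of 11, all tested and 0 called with either hairpin, where 3.58% and 4.41% of all genes were called. With the block 0 were called with sh76 and 1 with sh78, against 20.4% and 19.9% of all genes. Of 7 proteins that line the peptide exit tunnel of the ribosome, 0 were called, and with the block 3 were called higher with sh78, against 9.79% of all genes. Small nucleolar RNA genes lie within 28 canonical genes, 60 in all. Their hosts had median log2 fold changes of −0.001 with sh76 and 0.049 with sh78, close to −0.016 and 0.028 in the 57 tested genes without one. Genes with and without a TOP run at the start were alike too, with medians of −0.007 and −0.03 with sh76, and of 0.044 and 0.039 with sh78, over 47 and 20 genes.

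Each tested paralog except RPL3L was set beside its parent as a log2 ratio of CPM. For such ratios an exact permutation test of 3 against 3 libraries cannot go below a p of 0.10. RPL7L1, which works in ribosome biogenesis, stood lower relative to RPL7, a 60S protein, with ratios of −2.11, −2.09 and −2.14 in scramble, −2.41, −2.24 and −2.29 with sh76, and −2.43, −2.36 and −2.28 under sh78. Group means were −2.11 ± 0.0244 (SD, n = 3), −2.31 ± 0.0879 and −2.36 ± 0.0712, and neither hairpin group overlapped the scramble group. RPL7L1 itself was at 203, 210 and 221 CPM with scramble, 174, 197 and 201 CPM with sh76, and 180, 193 and 195 CPM with sh78, with log2 fold changes of −0.15 and −0.16 (adjusted edgeR p 0.282 and 0.243; 0.00985 and 0.00635 with the block).

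RPS27L, a paralog known as a p53 target, was higher relative to RPS27 with sh78, at −5.13, −4.95 and −4.86, against −5.42, −5.20 and −5.17 with scramble. With sh76 the ratios were −5.42, −5.33 and −5.12, which overlapped the scramble values. RPS27L alone was at 12.5, 14.1 and 15.6 CPM with scramble and 15.4, 18.5 and 17.5 CPM with sh78, which overlap, and had a log2 fold change of 0.28 (adjusted edgeR p 0.309, and 0.040 with the block). RPS27 was at 536, 519 and 560 CPM with scramble and 593, 590 and 630 CPM with sh76, all higher (log2 fold change 0.17, adjusted edgeR p 0.16, and 0.00467 with the block), and at 538, 572 and 508 CPM with sh78.

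The ratios of RPL22L1 to RPL22, RPL39L to RPL39, RPL36AL to RPL36A and RPL26L1 to RPL26 overlapped between scramble and both hairpins. RPL22L1 was at 5.48% of the RPL22 level with scramble, and RPL39L at 7.65% of the RPL39 level. For RPL36AL and RPL36A the order is the reverse, with RPL36AL at 93.7 to 124 CPM and RPL36A at 4.06 to 9.08 CPM, a gene whose exons are largely shared with a readthrough gene as described above. RPL3L, a muscle paralog of RPL3, had 7 to 25 counts in a library.

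**Figure D5:**
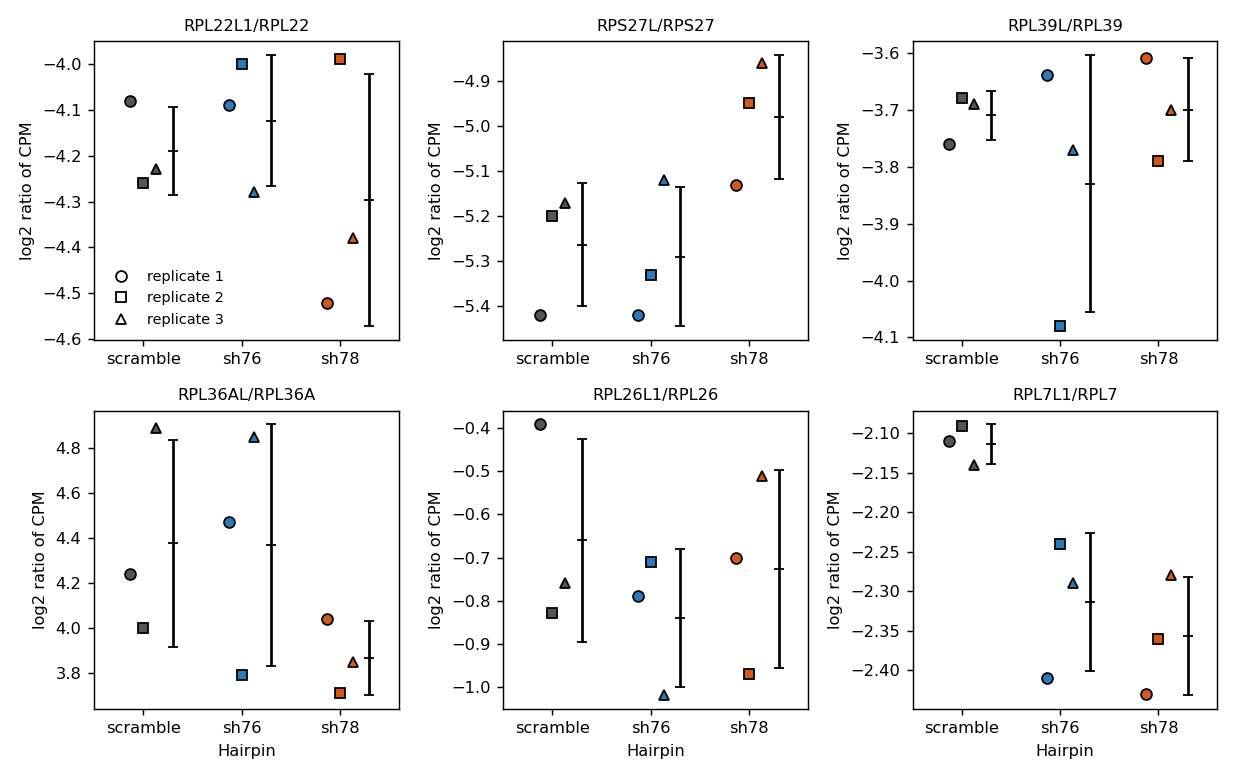
Log2 ratio of the CPM of each tested paralog except RPL3L to its parent's CPM in scramble, sh76 and sh78, one panel per pair. Points are libraries, and bars beside them give the mean and SD of 3 replicates. In the RPL7L1 panel all hairpin libraries lie below all scramble libraries (means −2.11, −2.31 and −2.36); the vertical axes differ between panels.

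The 2 hairpins were also compared with each other. In edgeR 0 of 85 genes were called between sh78 and sh76, against 3.7% of all genes, with 8 genes at an unadjusted p under 0.05 (9.41%, against 16.3%) and 0 calls in DESeq2. Without the low-count filter RPS3 and RPL37 were called. The log2 fold changes were above 0 for 67 of 85 genes with a median of 0.055. All libraries of one group lay beyond all of the other for 22 genes (25.9%, against 21.8% of all tested genes). Of these, 17 were higher with sh78 (10.9% of all tested genes were higher) and 5 were lower (10.9% were lower). With the block 19 were called (22.4%, against 18.3%), 16 of them higher (9.69% of all genes) and 3 lower (8.62%).

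RPS3, a 40S protein at the mRNA entry, was at 5042, 5169 and 5693 CPM with scramble, 4735, 4698 and 4935 CPM with sh76, and 5321, 5532 and 5523 CPM with sh78. The sh76 libraries were the lowest and the hairpins differed by log2 0.19 (adjusted edgeR p 0.1, and 0.000261 with the block). RPL37, a 60S protein, was at 700, 726 and 737 CPM with scramble, 713, 663 and 725 CPM with sh76, and 795, 880 and 753 CPM with sh78, and differed by 0.21 (adjusted edgeR p 0.1, and 0.00262 with the block). RPSA, a 40S protein also known as the laminin receptor, went the other way, at 1560, 1439 and 1568 CPM with scramble, 1576, 1496 and 1571 CPM with sh76, and 1285, 1382 and 1418 CPM with sh78. Between hairpins it differed by log2 −0.18 (adjusted edgeR p 0.116, and 0.000772 with the block).

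FAU and RACK1 fall outside the name rule. FAU encodes RPS30 fused to a ubiquitin-like protein. Its level was 260 ± 18.2 CPM in scramble cells (SD, n = 3), 227 ± 7.29 CPM under sh76 and 228 ± 12.1 CPM under sh78. Its log2 fold change was −0.19 with both hairpins (adjusted edgeR p 0.136 and 0.14; 0.00137 and 0.00182 with the block). RACK1, a scaffold protein of the 40S subunit, was not called with or without the block. Mitochondrial ribosomal protein genes are encoded in the nucleus and serve a different ribosome. Over 77 tested genes their median log2 fold changes were −0.031 and −0.055, against 0.006 over all genes with either hairpin. With sh76 0 were called (3.58% of all genes), and with sh78 1 was called, lower (1.3%, against 4.41% of all genes). With the block 7 were called with each hairpin (9.09%, against 20.4% and 19.9% of all genes).

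Of the machinery around the ribosome, 0 of 31 biogenesis genes, 0 of 14 RNA polymerase I genes, 0 of 14 other TOP mRNAs and 0 of 13 ribosome quality control genes were called with either hairpin. With the block these were 4, 3, 4 and 1 calls with sh76 and 4, 2, 3 and 2 with sh78, where 20.4% and 19.9% of all genes were called (3.58% and 4.41% without it). Among 18 regulators of TOP mRNAs and of mTORC1, 1 was higher and 2 were lower with each hairpin (1 and 5 with the block for sh76, 2 and 6 for sh78), against the same shares of all genes. EIF4EBP2, a repressor of cap-dependent translation, rose from 232, 236 and 216 CPM to 279, 311 and 309 CPM with sh76 and to 310, 329 and 317 CPM with sh78 (log2 fold changes 0.40 and 0.48, adjusted edgeR p 0.00334 and 0.000632). Its paralog EIF4EBP1 fell from 176, 139 and 154 CPM to 111, 116 and 131 CPM and to 129, 126 and 120 CPM (log2 fold changes −0.39 and −0.32, adjusted edgeR p 0.0216 and 0.0487). SESN2, which encodes a leucine sensor that restrains mTORC1, fell from 31.4, 31.2 and 31.2 CPM to 21.9, 22.3 and 20.3 CPM and to 19.2, 16.0 and 17.7 CPM (log2 fold changes −0.54 and −0.82, adjusted edgeR p 0.00665 and 0.000294).

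Among 27 initiation factors 2 were lower with each hairpin and 0 were higher (5 lower and 2 higher with the block for sh76, 7 and 4 for sh78). Over all genes, 3.58% were called with sh76 and 4.41% with sh78, and 20.4% and 19.9% with the block. EIF1, which guards start codon choice, was lower with both, at 278, 263 and 278 CPM with scramble, 223, 217 and 244 CPM with sh76, and 203, 214 and 225 CPM with sh78 (log2 fold changes −0.26 and −0.35, adjusted edgeR p 0.0367 and 0.00566). EIF4G2, which supports cap-independent initiation, was the other lower gene with sh76, at 1749, 1647 and 1748 CPM with scramble and 1498, 1467 and 1506 CPM with sh76 (log2 fold change −0.20, adjusted edgeR p 0.0498). With sh78 the log2 fold change of EIF4G2 was −0.11 (adjusted edgeR p 0.3, and 0.0394 with the block). EIF2S2, a subunit of the factor that brings the initiator tRNA, fell with sh78 from 287, 293 and 293 CPM to 229, 242 and 231 CPM (log2 fold change −0.31, adjusted edgeR p 0.00687). With sh76 EIF2S2 was at 242, 265 and 269 CPM (log2 fold change −0.17, adjusted edgeR p 0.138, and 0.00243 with the block). In the p53 checkpoint list of 4 genes, 1 was called higher with sh76, and 1 higher and 1 lower with sh78. With the block 2 were higher with sh76, and 3 higher and 1 lower with sh78, against the same shares of all genes. Each gene is given here only for the hairpin with its call, which does not show that the other hairpin left it unchanged. MDM4, which inhibits p53, rose with sh76 from 63.5, 65.2 and 65.0 CPM to 82.0, 79.1 and 79.6 CPM (log2 fold change 0.31, adjusted edgeR p 0.0214). MDM2, which targets p53 for degradation, was at 61.8, 60.5 and 62.9 CPM with scramble and rose to 71.3, 75.0 and 78.5 CPM with sh78 (log2 fold change 0.28, adjusted edgeR p 0.0327). CDKN1A, a p53 target that arrests the cell cycle, was at 7.1 to 12 CPM with scramble and fell to 4.0 to 6.0 CPM with sh78 (log2 fold change −0.96, adjusted edgeR p 0.0466). In the 9 fits without 1 library, the calls of EIF4EBP2 and SESN2 with both hairpins and of EIF1 and EIF2S2 with sh78 all held. The others were lost in some of them: EIF4EBP1 with sh76 in 4 (scramble 1 or 3, sh76 1 or 2) and with sh78 in 6 (scramble 1 or 3, sh76 2, any sh78), and EIF1 with sh76 in 5 (any scramble, sh76 1 or 2). MDM4 was lost in 6 (any scramble, any sh76), MDM2 in 5 (any scramble, sh78 2 or 3), CDKN1A in 6 (scramble 2 or 3, sh76 2, any sh78) and EIF4G2 in all 9.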

How the data were processed

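RNA was sequenced from 9 samples with poly-A selection and non-directional libraries, per the labels' protocols. The submitters' processing notes name HISAT2 2.0.5, featureCounts 1.5.0-p3 and the build hg38; counting settings are not given in the sources used here. The authors deposited raw counts per gene and FPKM per gene, the latter scaled by deposited gene length. Both tables cover 58735 genes in 9 libraries. The test was edgeR 4.0.16 under R 4.3.3 on the counts (filterByExpr with a minimum count of 10 and total of 15, TMM factors, robust quasi-likelihood fit, 1 coefficient per group), with Benjamini-Hochberg adjustment over 17023 genes. CPM values use the TMM factors. Alternatives used other scalings, no filter, DESeq2 1.42.0, limma 3.58.1 on log2 FPKM, a replicate block, and each library left out. Same-numbered samples of different groups correlated in their deviations from the group means in all 9 pairs (r 0.14 to 0.39, against −0.31 to 0.06 in 18 other pairs), so the number was taken to mark a shared batch. Over the ribosomal protein genes alone the same pairs ranged from −0.04 to 0.56 and the others from −0.52 to 0.20, so there it was not seen in every pair. No replicates were duplicates (chi-square per degree of freedom 5.321 to 12.22). Members and lists were chosen with earlier results of these data known. Named genes were GPX3, called members, the extremes of each comparison, the highest and lowest levels, paralogs with their parents, RPL5, RPL11, the stalk genes and up to 4 called genes per other list; RPS18, RPL14, RPSA, EIF2S2 and other genes beyond these were chosen after their values were seen. The edgeR test without the block was also run on simulated counts, with larger changes than those of the ribosomal protein genes and no batch. That run does not bear on calls with the block or on changes as small as those reported here. Some genes are counted in totals but not reported by name or drawn here.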

Additional observations from a re-analysis of the deposited data

How the results depend on the processing

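No result changed direction under the settings tried, and the median log2 fold changes of the ribosomal protein genes moved by less than the SD of the library medians (0.051) in all 4 comparisons. That limit is loose, as it is larger in size than the medians with sh76 (−0.014), with sh78 (0.034) and in the mean of both hairpins (0.015). The count of calls depended on the replicate block, which pairs same-numbered samples: with sh76 it was 14 (13 with a gene length offset, 14 with pseudogene counts added to the parent), with sh78 it was 17 (14 and 16), for the mean of both hairpins it was 8 (7 and 7) and for sh78 against sh76 it was 19 (24 and 19), in place of 0, 0, 1 and 0. The block with pseudogene counts was chosen after seeing the data. Without the low-count filter the counts were 1 with sh76 and 2 for sh78 against sh76; with pseudogene counts added, 1 with sh76; with DESeq2, 1 with sh76; and with limma on log2(FPKM + 1) and log2(FPKM + 0.1), 0 for the mean comparison. Without 1 library the counts lay between 0 and 1 with sh76 and between 0 and 1 for the mean comparison. The 1 call with sh76 came without scramble replicate 1. Without the block, each of these calls was RPL9, except for RPS3 and RPL37 between the hairpins without the filter. The share of counts was 7.64, 7.62 and 7.93% of nuclear protein-coding counts and 8.98, 8.93 and 9.26% of summed FPKM, in scramble, sh76 and sh78. Genes of a few CPM, such as RPL36A, RPS10 and RPL3L, carry intervals too wide to limit a change.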
